A study of Homo sapiens with 12 samples.

Results

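The genes of the matrix metalloproteinases (MMPs), the ADAM and ADAMTS proteases and the tissue inhibitors of metalloproteinases (TIMPs) were followed through RNA sequencing of 2 pancreatic ductal adenocarcinoma cell lines. A gene was taken as a member when its symbol consisted of MMP, ADAM, ADAMTS or TIMP, a number and at most 1 further letter, and 70 of the 48114 genes in the tables met this rule. They comprised 23 MMPs, 24 ADAMs, 19 ADAMTS genes and 4 TIMPs, with MMP23B and its near-identical copy MMP23A joined as 1 gene and reported as MMP23B. PANC-1 cells, which the study uses as a basal-like line, received a control siRNA (siCtrl), 40 nM of an siRNA against QKI (siQKI) or 40 nM of one against RBFOX2 (siRBFOX2), and were collected after 48 h. HPAF-II cells, used as a classical line, were labelled as silenced with siCtrl for 48 h. Each of these 4 groups held 3 biological replicates, and each group rests on a single established cell line.

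These proteases act outside the cell or at its surface. MMPs and most ADAMs carry a zinc ion in the catalytic site and are made as inactive precursors, in which a cysteine of the prodomain blocks the zinc until the prodomain is removed. MMPs cleave collagens, laminins and other matrix proteins, ADAMs release the outer parts of membrane proteins such as growth factors, cytokines and adhesion molecules, and secreted ADAMTS proteases cut proteoglycans, procollagens and blood proteins. TIMPs bind the active site and block it, and in pancreatic cancer the balance of these proteins shapes the dense matrix around the tumour.

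The deposited values, called normalized counts here, had been scaled between libraries by DESeq2 size factors. They count the whole output of a gene and not its splice forms, and in bulk RNA fewer expressing cells cannot be told apart from less RNA per cell. The size factors lay between 0.877 and 1.15 in PANC-1 and between 0.810 and 1.09 in HPAF-II libraries, and how many fragments stand behind a value could not be recovered. QKI was left at 19.7% of its siCtrl level by siQKI and RBFOX2 at 13.6% by siRBFOX2. The target that was not silenced shifted as well, to 81.9% of siCtrl for RBFOX2 after siQKI and 109.7% for QKI after siRBFOX2. In both cases all libraries lay outside the siCtrl range. The part of these shifts in the calls of either knockdown was not tested. All 6 epithelial markers (KRT7, KRT8, KRT18, KRT19, EPCAM and CDH1) were detected in all 12 libraries, with KRT7, EPCAM and CDH1 low in PANC-1 and high in HPAF-II. Of the 3 leukocyte markers, CD3E was at 0 in all PANC-1 libraries and PTPRC reached at most 0.0632 rescaled counts there (libraries rescaled to a total of 1000000), while CD68, a lysosomal gene that other cells also express, had 144 to 167 in siCtrl, 116 to 118 in siQKI, 126 to 133 in siRBFOX2 and 75.8 to 106 in HPAF-II libraries. The 3 endothelial markers (PECAM1, VWF and CDH5) summed to at most 0.220 in PANC-1 and 0.0452 in HPAF-II, and the 3 acinar markers (PRSS1, CPA1 and AMY2A) to at most 0.149 and 1.17. The part of these markers in the results was not tested. Libraries of a group correlated with r between 0.965 and 0.973 in PANC-1 and between 0.921 and 0.938 in HPAF-II across genes, which are not independent replicates. In HPAF-II, 17178 genes had a mean of at least 50. Of these, 12.5% differed at least 2-fold in replicate 3 from the mean of the other libraries, against 8.24% for replicate 1 and 9.48% for replicate 2. By this share replicate 3 stood apart more than the others. By correlation it did not, with r of 0.936 to replicate 1 and 0.938 to replicate 2, against 0.921 between replicates 1 and 2.

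Levels were first ordered within PANC-1 siCtrl cells, per kilobase of exonic length and with each library rescaled to a total of 1000000. TIMP1, which blocks most secreted MMPs, led with 111 ± 4.15 rescaled counts per kilobase (SD, n = 3). The membrane protease ADAM9 followed with 22.2 ± 0.926, TIMP2 with 12.1 ± 0.232 and the gelatinase MMP2 with 11.7 ± 0.584. TIMP2 and MMP2 differed by less than the spread between libraries. ADAM10 reached 9.57 ± 0.0958, ADAM15 5.44 ± 0.285 and ADAMTS15 4.88 ± 0.0613, ahead of MMP14 at 2.0 ± 0.103 and MMP17 at 1.97 ± 0.275, which also did not differ beyond their spread. In total 47 of the 70 members averaged at least 10 normalized counts over the 9 PANC-1 libraries and were tested, and 42 averaged at least 50. The other 23 stayed below 10, and 11 of them (ADAM3A, ADAM3B, ADAM6, ADAM7, ADAM18, ADAM30, ADAMTS5, MMP12, MMP26, MMP27 and TIMP4) were at 0 in all 9 libraries. The remaining 12 were ADAM2, ADAM5, ADAM20, ADAM28, ADAM29, ADAMTS9, ADAMTS19, ADAMTS20, MMP3, MMP8, MMP13 and MMP21, whose highest value in any PANC-1 library was 54.3 normalized counts.

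The siQKI libraries were compared with the siCtrl libraries to see which members change after silencing of QKI, an RNA-binding protein that regulates splicing and RNA stability. In siQKI cells 13 members rose and 7 fell, so that 20 of the 47 tested members (42.6%) passed the adjusted threshold of 0.05 in limma. Over all 22544 genes tested, 33.0% passed, with 14.9% higher and 18.1% lower. The members that rose included the gelatinase MMP2, 3 of the 6 membrane-type MMPs (MMP14, MMP15 and MMP17), the sheddases ADAM10 and ADAM17, ADAMTS13, ADAMTS15 and TIMP2. Those that fell were MMP1, MMP16, ADAM15, ADAM19, ADAM32, ADAMTS16 and TIMP1. The median log2 fold change of the tested members was 0.26, against 0.03 over all genes, and the median of the absolute values was 0.48 against 0.29. Groups did not overlap between siQKI and siCtrl for 23 of the 47 members, where 44.7% of all genes tested had no overlap. With each library rescaled to its upper quartile, 15 members rose and 5 fell, and the split over all genes turned from 3362 higher and 4070 lower to 4225 higher and 3057 lower.

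In siRBFOX2 cells, where this splicing regulator of the RBFOX family was silenced, 12 members rose and 4 fell. These 16 made up 34.0% of the 47, where 26.5% of all genes tested passed in limma, 12.0% higher and 14.5% lower. MMP2, MMP14, MMP15, ADAM17, ADAMTS13 and ADAMTS18 passed as higher in both knockdowns and ADAM19 and TIMP1 as lower in both. ADAM15 and TIMP2 passed in opposite directions. Both knockdowns were compared with the same 3 siCtrl libraries, so the number of shared calls is a description only. The median log2 fold change of the members was 0.22 in siRBFOX2 cells, against 0.01 over all genes, and 19 members had groups without overlap, where the share over all genes was 37.9%. With upper-quartile rescaling, the split over all genes turned from 2713 higher and 3272 lower to 3128 higher and 2715 lower.

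The summed rescaled counts of the MMPs were 93.6 ± 2.22 in siCtrl, 143 ± 3.78 in siQKI and 128 ± 10.5 in siRBFOX2 cells (SD, n = 3 each), most of them from MMP2. Those of the ADAMTS genes were 36.7 ± 0.539, 52.7 ± 0.721 and 41.8 ± 3.91. The ADAM sums of 381 ± 5.22, 418 ± 9.71 and 425 ± 11.4 and the TIMP sums of 240 ± 5.19, 244 ± 13.3 and 213 ± 3.16 moved less in proportion to siCtrl. The ADAM sums of both knockdowns lay above the siCtrl range, and the TIMP sums of siRBFOX2 lay below it. Fibroblast markers moved in the same libraries. The sum of the 4 genes COL1A1, DCN, LUM and PDGFRB was 11.7 to 13.4 rescaled counts in siCtrl, 25.2 to 28.7 in siQKI and 15.0 to 22.6 in siRBFOX2 libraries, of which COL1A1 made up at least 11.2, 23.1 and 13.3, while DCN was at 0 in all 9 libraries. CDH1, the epithelial cadherin, was at 2.80 to 2.94, 6.94 to 9.08 and 3.95 to 4.77 in the same order. The other epithelial markers did not all move this way. In siQKI libraries KRT8 and KRT19 lay above the siCtrl range, KRT7 and KRT18 below it, and EPCAM overlapped. In siRBFOX2 libraries KRT8, KRT18, KRT19 and EPCAM lay below the siCtrl range, and KRT7 overlapped. The sum of all 6 epithelial markers was 2550 to 2643, 2558 to 2715 and 2133 to 2290. Their part in the results on the proteases was not tested.

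**Figure D1:**
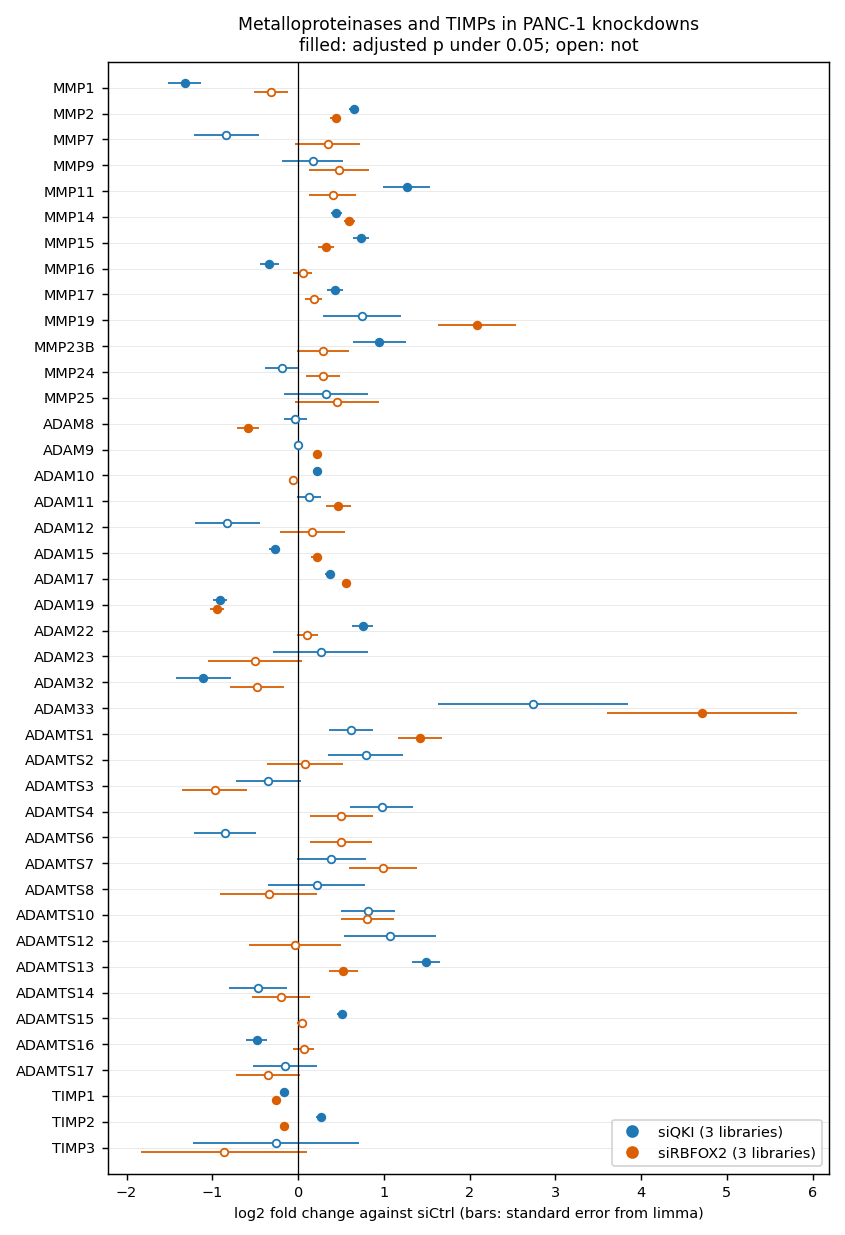
Log2 fold change against siCtrl (x axis) of the 42 members that averaged at least 50 normalized counts, in siQKI (blue) and siRBFOX2 cells (orange) of PANC-1, with the standard error from limma as a bar. Filled points passed an adjusted p of 0.05, ADAM19 lies near -0.9 in both knockdowns, and ADAM15 and TIMP2 have filled points on opposite sides of 0.

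Among the secreted MMPs, MMP2 (GSHG0016478, chromosome 16, 55389699 to 55506691 on hg38) was the most abundant. This gelatinase degrades type IV collagen of basement membranes. MMP2 had 20501, 20001 and 18902 normalized counts in the siCtrl libraries, 33016, 29690 and 30818 in the siQKI libraries and 28168, 28356 and 24085 in the siRBFOX2 libraries. Its log2 fold change was 0.65 (standard error 0.06, limma adjusted p = 9.90e-07) in siQKI and 0.44 (standard error 0.06, limma adjusted p = 8.63e-05) in siRBFOX2 cells. All libraries of both knockdowns lay above all siCtrl libraries. The other gelatinase, MMP9, passed in neither knockdown, with log2 fold changes of 0.17 and 0.48 around a siCtrl mean of 431 ± 191 normalized counts (SD, n = 3).

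MMP1 (GSHG0008189, chromosome 11, 102789910 to 102800391), the interstitial collagenase that opens fibrillar collagen, fell in siQKI cells. It had 634, 663 and 506 normalized counts in the siCtrl libraries, 202, 231 and 289 in the siQKI libraries and 496, 409 and 541 in the siRBFOX2 libraries. In siQKI cells 40.1% of the siCtrl mean remained, a log2 fold change of -1.32 (standard error 0.20, limma adjusted p = 8.44e-05). The siQKI libraries lay below all siCtrl and all siRBFOX2 libraries, while in siRBFOX2 cells the log2 fold change was -0.32 (standard error 0.20, limma adjusted p = 0.272) and the groups overlapped. MMP1 shares exonic bases with the transcript WTAPP1 on the other strand, and the strand setting of the counting is not given in the sources used here.

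MMP11, or stromelysin 3, is activated inside the cell by furin. Its values were 264, 206 and 147 normalized counts in the siCtrl libraries, 387, 523 and 555 in the siQKI libraries and 367, 262 and 193 in the siRBFOX2 libraries. It rose in siQKI cells with a log2 fold change of 1.27 (standard error 0.28, limma adjusted p = 0.00223), and there the libraries did not overlap with siCtrl. In siRBFOX2 cells its log2 fold change of 0.40 (standard error 0.28, limma adjusted p = 0.333) did not pass, and part of its exonic bases are shared with CHCHD10 on the other strand.

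MMP19, which cleaves basement membrane proteins, had 56.5, 71 and 75.5 normalized counts in the siCtrl libraries, 176, 169 and 48.2 in the siQKI libraries and 309, 392 and 198 in the siRBFOX2 libraries. It passed in siRBFOX2 cells only, at 2.09 (standard error 0.45, limma adjusted p = 0.00291), and all 3 of these libraries lay above the siCtrl libraries. In siQKI cells replicates 1 and 2 were also above siCtrl and replicate 3 was below, with a log2 fold change of 0.74 (standard error 0.45, limma adjusted p = 0.242). The difference between the knockdowns passed at -1.35 (standard error 0.45, limma adjusted p = 0.0458) but was lost without siCtrl or knockdown libraries in turn, namely without siCtrl replicate 2 (0.0536), siCtrl replicate 3 (0.0536), siQKI replicate 3 (0.198), siRBFOX2 replicate 1 (0.116) or siRBFOX2 replicate 2 (0.155), with adjusted p in parentheses. MMP19 shares exonic bases with TMEM198B on the other strand.

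MMP23B, a small membrane-anchored MMP, had 294, 205 and 481 normalized counts in the siCtrl libraries, 525, 668 and 597 in the siQKI libraries and 594, 342 and 261 in the siRBFOX2 libraries. Its log2 fold change was 0.95 (standard error 0.31, limma adjusted p = 0.0269) in siQKI and 0.29 (standard error 0.31, limma adjusted p = 0.554) in siRBFOX2 cells. The siQKI libraries all lay above siCtrl, where the values spread more than 2-fold. The call was lost without siCtrl replicate 1 (0.0663), siCtrl replicate 2 (0.129), siQKI replicate 2 (0.0912) or siQKI replicate 3 (0.0652), and MMP23B overlaps exons of CDK11B.

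Of the 6 membrane-type MMPs, which act at the cell surface, 3 rose and 1 fell in siQKI cells and 2 rose in siRBFOX2 cells. MMP14 (GSHG0012006, chromosome 14, 22836584 to 22847761), which cleaves collagen and activates the precursor of MMP2, had 3193, 3097 and 2939 normalized counts in the siCtrl libraries, 4308, 4185 and 4081 in the siQKI libraries and 4542, 4970 and 4446 in the siRBFOX2 libraries. Its log2 fold change was 0.45 (standard error 0.07, limma adjusted p = 7.68e-05) in siQKI and 0.60 (standard error 0.07, limma adjusted p = 8.92e-06) in siRBFOX2 cells. All knockdown libraries were above all siCtrl libraries, and the 2 knockdowns did not pass as different from each other, at -0.15 (standard error 0.07, limma adjusted p = 0.127).

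MMP15, a close relative of MMP14, had 2256, 2727 and 2467 normalized counts in the siCtrl libraries, 4616, 3976 and 3780 in the siQKI libraries and 2935, 3041 and 3331 in the siRBFOX2 libraries. It rose by 0.73 (standard error 0.09, limma adjusted p = 1.67e-05) on the log2 scale in siQKI and by 0.32 (standard error 0.09, limma adjusted p = 0.0153) in siRBFOX2 cells. Again no knockdown library fell into the siCtrl range, and the rise was larger in siQKI cells, with a difference of 0.41 (standard error 0.09, limma adjusted p = 0.00424). The siRBFOX2 call was lost without siCtrl replicate 1 (0.0715) or siRBFOX2 replicate 3 (0.0645).

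MMP17, which is held in the membrane by a lipid anchor, had 2268, 2838 and 3056 normalized counts in the siCtrl libraries, 3509, 3862 and 3543 in the siQKI libraries and 3244, 2923 and 3025 in the siRBFOX2 libraries. In siQKI cells it rose with a log2 fold change of 0.43 (standard error 0.10, limma adjusted p = 0.00279) and without overlap, and in siRBFOX2 cells it had 0.18 (standard error 0.10, limma adjusted p = 0.198). MMP16 had 1500, 1543 and 1480 normalized counts in the siCtrl libraries, 1033, 1348 and 1224 in the siQKI libraries and 1556, 1727 and 1425 in the siRBFOX2 libraries. Its fall in siQKI cells was small, -0.34 (standard error 0.11, limma adjusted p = 0.0305), with all siQKI libraries below siCtrl. It did not hold without siCtrl replicate 1 (0.0636), siCtrl replicate 2 (0.0833), siCtrl replicate 3 (0.0599), siQKI replicate 1 (0.142) or siQKI replicate 3 (0.0566), nor with upper-quartile rescaling, where the adjusted p was 0.0776. MMP24 and MMP25 passed in neither knockdown, with log2 fold changes of -0.19 and 0.33 in siQKI and 0.29 and 0.45 in siRBFOX2 cells. MMP7 (-0.84 and 0.34), MMP10 (0.07 and -2.45), MMP20 (1.64 and 2.14) and MMP28 (2.40 and 1.52) also did not pass, and the last 3 had means below 30 normalized counts.

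The ADAMs with a working catalytic motif are the sheddases of the family. ADAM10 (GSHG0015100, chromosome 15, 58588809 to 58749987), which sheds Notch receptors and cadherins, had 51802, 54254 and 53594 normalized counts in the siCtrl libraries, 59915, 62720 and 62863 in the siQKI libraries and 51397, 52641 and 49536 in the siRBFOX2 libraries. It rose slightly in siQKI cells, 0.22 (standard error 0.04, limma adjusted p = 4.23e-04), with all 3 libraries above siCtrl, and had -0.06 (standard error 0.04, limma adjusted p = 0.329) in siRBFOX2 cells. The difference between the knockdowns was 0.27 (standard error 0.04, limma adjusted p = 1.06e-04).

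ADAM17 (GSHG0025060, chromosome 2, 9488486 to 9555830) releases tumour necrosis factor and ligands of the EGF receptor. It had 5612, 5920 and 5705 normalized counts in the siCtrl libraries, 7111, 7613 and 7498 in the siQKI libraries and 8200, 8724 and 8536 in the siRBFOX2 libraries. The log2 fold change was 0.37 (standard error 0.05, limma adjusted p = 5.92e-05) in siQKI and 0.56 (standard error 0.05, limma adjusted p = 1.79e-06) in siRBFOX2 cells. The 3 groups formed 3 separate steps, with siCtrl lowest and siRBFOX2 highest, and the difference between the knockdowns of -0.20 (standard error 0.05, limma adjusted p = 0.0128) was lost without siQKI replicate 1 (0.0591). Part of its exonic sequence is shared with IAH1 on the other strand.

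ADAM19 (GSHG0035946, chromosome 5, 157395528 to 157575775), a protease that can shed neuregulin of the cell surface, fell in both knockdowns. It had 3734, 3264 and 3407 normalized counts in the siCtrl libraries, 1761, 1816 and 1956 in the siQKI libraries and 1797, 1772 and 1831 in the siRBFOX2 libraries. The siQKI mean was 53.2% and the siRBFOX2 mean 51.9% of the siCtrl mean. The log2 fold changes were -0.91 (standard error 0.08, limma adjusted p = 4.98e-07) and -0.94 (standard error 0.08, limma adjusted p = 7.13e-07), and the difference between the knockdowns was 0.03 (standard error 0.08, limma adjusted p = 0.827). ADAM19 overlaps exonic bases of CYFIP2 on the other strand.

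ADAM15 (GSHG0001186, chromosome 1, 155050946 to 155062775), whose disintegrin domain binds integrins, moved apart in the 2 knockdowns. It had 11419, 12943 and 12658 normalized counts in the siCtrl libraries, 10005, 9738 and 10857 in the siQKI libraries and 14713, 13155 and 15176 in the siRBFOX2 libraries. In siQKI cells it fell with a log2 fold change of -0.27 (standard error 0.06, limma adjusted p = 0.00382), and in siRBFOX2 cells it rose with 0.22 (standard error 0.06, limma adjusted p = 0.021). No siQKI library and no siRBFOX2 library reached into the siCtrl range, and the knockdowns differed by -0.49 (standard error 0.06, limma adjusted p = 5.61e-05). The rise in siRBFOX2 cells was lost without siCtrl replicate 1 (0.101), siRBFOX2 replicate 1 (0.0740) or siRBFOX2 replicate 3 (0.0872). The fall and the difference between the knockdowns were kept in all 17 alternatives. ADAM15 shares exonic bases with DCST1 on the same strand.

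ADAM9, an abundant sheddase, had 53536, 50947 and 54108 normalized counts in the siCtrl libraries, 52407, 53447 and 52106 in the siQKI libraries and 59052, 60278 and 65032 in the siRBFOX2 libraries. It rose in siRBFOX2 cells, 0.22 (standard error 0.04, limma adjusted p = 0.00129), without overlap, while in siQKI cells the log2 fold change was -0.01 (standard error 0.04, limma adjusted p = 0.942). ADAM8, known from leukocytes and from invasive tumour cells, had 1119, 1076 and 1395 normalized counts in the siCtrl libraries, 1266, 1126 and 1097 in the siQKI libraries and 735, 732 and 924 in the siRBFOX2 libraries. It fell in siRBFOX2 cells, -0.59 (standard error 0.13, limma adjusted p = 0.00415), where all libraries were below siCtrl, and had -0.03 (standard error 0.13, limma adjusted p = 0.877) in siQKI cells. The knockdowns differed by -0.22 (standard error 0.04, limma adjusted p = 0.00127) for ADAM9 and by 0.55 (standard error 0.13, limma adjusted p = 0.00733) for ADAM8.

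ADAM33, a gene linked to asthma, had 23, 2.0 and 0 normalized counts in the siCtrl libraries, 34.2, 51.5 and 10.5 in the siQKI libraries and 318, 91 and 42.6 in the siRBFOX2 libraries. It was near 0 in 2 of the 3 siCtrl libraries, and every siRBFOX2 library lay above all of them. The fitted log2 fold change of 4.71 (standard error 1.11, limma adjusted p = 0.00513) depended on the pseudocount and was 5.99 with 0.1 and 2.93 with 10. ADAM12 did not pass, with log2 fold changes of -0.83 and 0.17.

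ADAM22, ADAM11 and ADAM23 lack the catalytic motif and act as cell surface ligands and receptors, mostly studied in neurons. ADAM22 had 805, 775 and 933 normalized counts in the siCtrl libraries, 1495, 1487 and 1253 in the siQKI libraries and 937, 958 and 809.5 in the siRBFOX2 libraries. It rose in siQKI cells, 0.75 (standard error 0.12, limma adjusted p = 2.04e-04), with no overlap, and had 0.11 (standard error 0.12, limma adjusted p = 0.589) in siRBFOX2 cells. ADAM11 had 649, 753 and 641 normalized counts in the siCtrl libraries, 909, 677 and 662 in the siQKI libraries and 940.1, 979 and 903 in the siRBFOX2 libraries. It rose in siRBFOX2 cells, 0.47 (standard error 0.14, limma adjusted p = 0.0235), again without overlap, a call lost without siCtrl replicate 1 (0.0694), siCtrl replicate 3 (0.0780), siRBFOX2 replicate 1 (0.0591) or siRBFOX2 replicate 2 (0.0700). ADAM23 passed in neither knockdown (0.26 and -0.50). ADAM32, mostly known from testis, had 467, 259 and 296 normalized counts in the siCtrl libraries, 243, 120.3 and 122 in the siQKI libraries and 276, 258 and 185 in the siRBFOX2 libraries. Its fall in siQKI cells, -1.10 (standard error 0.32, limma adjusted p = 0.0138), placed all siQKI libraries below siCtrl and was lost without siCtrl replicate 1 (0.0767), siQKI replicate 2 (0.0612) or siQKI replicate 3 (0.0589). ADAM21 had a mean of only 23.5 normalized counts and did not pass (-0.15 and 1.71).

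**Figure D2:**
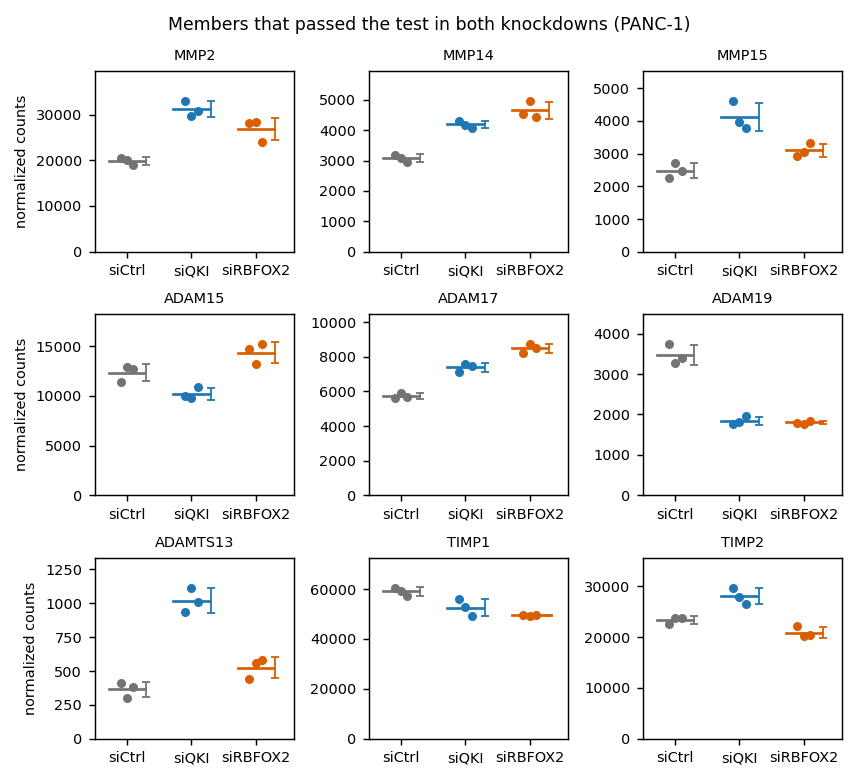
Normalized counts of the 9 members with a mean of at least 50 that passed in both knockdowns, with 1 point per PANC-1 library, a horizontal line at the mean of 3 libraries and the SD as a bar to its right. MMP2, MMP14, MMP15, ADAM17 and ADAMTS13 were higher in both knockdowns, ADAM19 and TIMP1 lower in both, and ADAM15 and TIMP2 lay on opposite sides of siCtrl.

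The ADAMTS proteases were led by ADAMTS15 (GSHG0006909, chromosome 11, 130448645 to 130476645), which cleaves proteoglycans such as versican and held 75.3% of the summed rescaled counts of its family in siCtrl cells, without correction for length. It had 9338, 9763 and 9447 normalized counts in the siCtrl libraries, 13829, 13299 and 13553 in the siQKI libraries and 10260, 10354 and 8920 in the siRBFOX2 libraries. The rise in siQKI cells was 0.51 (standard error 0.06, limma adjusted p = 5.52e-06) and left a clear gap to siCtrl. In siRBFOX2 cells the log2 fold change was 0.05 (standard error 0.06, limma adjusted p = 0.619), and the knockdowns differed by 0.47 (standard error 0.06, limma adjusted p = 2.81e-05).

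ADAMTS13, the protease of von Willebrand factor, had 411, 302 and 380.3 normalized counts in the siCtrl libraries, 935, 1114 and 1012 in the siQKI libraries and 438, 559.8 and 578 in the siRBFOX2 libraries. It rose in siQKI cells by 1.49 (standard error 0.17, limma adjusted p = 5.69e-06) on the log2 scale and in siRBFOX2 cells by 0.53 (standard error 0.17, limma adjusted p = 0.0277). Both knockdowns lay above siCtrl throughout, the siQKI rise was larger, with a difference of 0.96 (standard error 0.17, limma adjusted p = 5.93e-04), and the siRBFOX2 call was lost without siCtrl replicate 2 (0.116), siRBFOX2 replicate 2 (0.0850) or siRBFOX2 replicate 3 (0.0962). ADAMTS1, which cleaves versican and aggrecan, had 283, 152 and 166 normalized counts in the siCtrl libraries, 285, 343 and 266 in the siQKI libraries and 575, 608 and 395 in the siRBFOX2 libraries. It passed in siRBFOX2 cells, 1.42 (standard error 0.26, limma adjusted p = 7.98e-04), where all libraries were above siCtrl, and had 0.62 (standard error 0.26, limma adjusted p = 0.0822) in siQKI cells.

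ADAMTS16 had 1314, 1026 and 1251 normalized counts in the siCtrl libraries, 806, 924 and 830.4 in the siQKI libraries and 1127, 1241 and 1379 in the siRBFOX2 libraries. It fell in siQKI cells, -0.48 (standard error 0.12, limma adjusted p = 0.00697), without overlap, and had 0.06 (standard error 0.12, limma adjusted p = 0.764) in siRBFOX2 cells. ADAMTS18 was low, with 10.1 ± 5.70 normalized counts in siCtrl, 70.0 ± 8.57 in siQKI and 52.5 ± 13.6 in siRBFOX2 cells (SD, n = 3 each). Its log2 fold changes were 2.83 (standard error 0.62, limma adjusted p = 0.00231) and 2.39 (standard error 0.62, limma adjusted p = 0.00961), with every knockdown library above every siCtrl library. The 3 procollagen N-proteinases did not pass, with log2 fold changes in siQKI and siRBFOX2 cells of 0.79 and 0.08 for ADAMTS2, -0.35 and -0.97 for ADAMTS3 and -0.47 and -0.20 for ADAMTS14. The fibrillin-binding ADAMTS6 (-0.85 and 0.50) and ADAMTS10 (0.81 and 0.81) did not pass either. Nor did ADAMTS4 (0.98 and 0.50), ADAMTS7 (0.39 and 0.99), ADAMTS8 (0.21 and -0.34), ADAMTS12 (1.07 and -0.04) and ADAMTS17 (-0.15 and -0.35), in siQKI and siRBFOX2 cells respectively. These low genes were measured with less precision, since the median standard error of the members that did not pass was 0.38 in siQKI cells, against 0.09 for those that passed.

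TIMP1 (GSHG0045689, chromosome X, 47582313 to 47586789) lies within an intron of SYN1 and had 60480, 59355 and 57270 normalized counts in the siCtrl libraries, 55876, 52774 and 49019 in the siQKI libraries and 49685, 49118 and 49641 in the siRBFOX2 libraries. It fell slightly in both knockdowns, with log2 fold changes of -0.17 (standard error 0.04, limma adjusted p = 0.00859) and -0.25 (standard error 0.04, limma adjusted p = 6.32e-04). No knockdown library reached the lowest siCtrl value. The siQKI call was lost without siQKI replicate 3 (0.0576) and with upper-quartile rescaling, where the adjusted p was 0.0825. TIMP2 (GSHG0019681, chromosome 17, 78852977 to 78925390), which joins MMP14 to the precursor of MMP2, had 22511, 23837 and 23782 normalized counts in the siCtrl libraries, 29679, 27946 and 26525 in the siQKI libraries and 22092, 20254 and 20333 in the siRBFOX2 libraries. Its log2 fold change was 0.26 (standard error 0.05, limma adjusted p = 8.03e-04) in siQKI and -0.16 (standard error 0.05, limma adjusted p = 0.0254) in siRBFOX2 cells, so that all siQKI libraries were above and all siRBFOX2 libraries below siCtrl. The 2 knockdowns differed by 0.42 (standard error 0.05, limma adjusted p = 2.15e-05), a difference kept in all 17 alternatives. The small fall in siRBFOX2 cells was lost without siCtrl replicate 2 (0.0852), siCtrl replicate 3 (0.0833), siRBFOX2 replicate 2 (0.0856) or siRBFOX2 replicate 3 (0.0805) and with upper-quartile rescaling, where the adjusted p was 0.0582. TIMP2 shares exonic bases with CEP295NL on the same strand. TIMP3, which also blocks ADAM17 and several ADAMTS proteases, had 56.4 ± 33.5 normalized counts in the siCtrl libraries (SD, n = 3) and passed in neither knockdown (-0.26 and -0.87).

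The direct comparison of siQKI with siRBFOX2 libraries tested the difference between the knockdowns. It passed in limma for 19 of the 47 members (40.4%), 9 of them higher and 10 lower in siQKI cells, where 21.5% of all genes tested passed, 9.93% higher and 11.6% lower. Upper-quartile rescaling turned the split over all genes from 2238 higher and 2606 lower to 2764 higher and 2230 lower. Of the 19 members, 11 kept their call in all 17 alternatives, namely ADAM8, ADAM9, ADAM10, ADAM15, ADAM22, ADAMTS13, ADAMTS15, ADAMTS16, MMP1, MMP15 and TIMP2. MMP1 differed by -1.0 (standard error 0.20, limma adjusted p = 0.00156), ADAM22 by 0.65 (standard error 0.12, limma adjusted p = 0.00129) and ADAMTS16 by -0.55 (standard error 0.12, limma adjusted p = 0.00479). The other 8 lost the call under at least 1 alternative. With adjusted p in parentheses, MMP2 lost it without siQKI replicate 1 (0.0880) or siRBFOX2 replicate 3 (0.0846), and MMP16 without siQKI replicate 1 (0.0968) or siRBFOX2 replicate 2 (0.0819). MMP11 lost it without siQKI replicate 2 (0.114), siQKI replicate 3 (0.130), siRBFOX2 replicate 2 (0.0743) or siRBFOX2 replicate 3 (0.154), and MMP7 without siQKI replicate 1 (0.139), siQKI replicate 3 (0.0914), siRBFOX2 replicate 1 (0.0609), siRBFOX2 replicate 2 (0.112) or siRBFOX2 replicate 3 (0.0721). ADAMTS1 lost it without siQKI replicate 1 (0.0948), siQKI replicate 3 (0.119), siRBFOX2 replicate 1 (0.122) or siRBFOX2 replicate 2 (0.128), and ADAMTS6 without siQKI replicate 3 (0.0547) or siRBFOX2 replicate 2 (0.0755). ADAM17 and MMP19 are given above.

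Some members that did not pass did so once 1 library was left out, with limma adjusted p in parentheses. Against siCtrl in siQKI cells, MMP19 passed without siQKI replicate 3 (0.0114), ADAMTS1 without siCtrl replicate 1 (0.0132) and ADAM33 without siCtrl replicate 1 (0.00874), all as higher. ADAMTS10 passed as higher without siRBFOX2 replicate 1 (0.0181) or siRBFOX2 replicate 3 (0.0182), ADAMTS4 without siCtrl replicate 1 (0.0205) and MMP28 without siCtrl replicate 3 (0.0461), and MMP7 passed as lower without siCtrl replicate 3 (0.0478) or siQKI replicate 2 (0.0394). In siRBFOX2 cells, ADAMTS10 passed as higher without siRBFOX2 replicate 3 (0.00523) and ADAMTS7 without siCtrl replicate 1 (0.041) or siQKI replicate 2 (0.0498), while ADAMTS3 passed as lower without siRBFOX2 replicate 3 (0.0485) and MMP10 without siCtrl replicate 1 (0.0407). Between the knockdowns, MMP17 passed without siCtrl replicate 1 (0.0253), MMP23B without siRBFOX2 replicate 1 (0.0322) and ADAMTS12 without siRBFOX2 replicate 1 (0.0499), as higher in siQKI cells. ADAM11 without siQKI replicate 1 (0.0247), ADAM12 without siRBFOX2 replicate 2 (0.0365) and ADAM32 without siQKI replicate 1 (0.0443) passed as lower. Apart from MMP17 and ADAM11, these genes averaged at most 441 normalized counts over the 9 libraries.

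The messages were then searched for the letters that these RNA-binding proteins are known to prefer, ACTAAC for QKI and TGCATG for the RBFOX family, on the transcript strand of the longest protein-coding GENCODE 29 transcript of each gene. The 2 motifs do not overlap each other. ACTAAC stood in 4 of the 13 members that rose in siQKI cells (30.8%), in none of the 7 that fell and in 9 of the 27 that did not pass, and in 26.9% of the 14282 tested genes with such a transcript. The sites in the members that rose are shown because siQKI removes the protein that is known to bind these letters. Each line gives 30 bases of the transcript, 5′ to 3′, with the motif in capitals, from GRCh38.
MMP2, 3′ UTR, chr16:55506532-55506561, plus strand: tttaatgctactACTAACaatgaacagtaa
ADAM17, coding sequence, chr2:9543159-9543188, minus strand: tgtagaaacactACTAACtttttcagcttt
ADAM22, 3′ UTR, chr7:88196670-88196699, plus strand: gcttaggatttaACTAACcatgaaaagaac
ADAM22, 3′ UTR, chr7:88197858-88197887, plus strand: ctgcgaagttacACTAACagctggtggggg
ADAM22, 3′ UTR, chr7:88202220-88202249, plus strand: ttttttttttacACTAACtgcaaaactgct
ADAMTS18, coding sequence, chr16:77362140-77362169, minus strand: tcatgccatcttACTAACaggatttgatat
ADAMTS18, 3′ UTR, chr16:77283482-77283511, minus strand: gttcacagttcgACTAACcctgtgaacacc
All 3 matches of ADAM22 and the match of MMP2 lie in the 3′ UTR. A match of these letters is not a measured binding site.

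TGCATG stood in 5 of the 12 members that rose in siRBFOX2 cells (41.7%), in 3 of the 4 that fell and in 16 of the 31 that did not pass. It is common, since 55.6% of the 14282 genes hold it. The 4 matches in members that fell, ADAM8, ADAM19 and TIMP2, are shown in the same way for comparison with the QKI sites.
ADAM8, coding sequence, chr10:133272423-133272452, minus strand: cacggcggcaccTGCATGacaacgtacagc
ADAM19, 3′ UTR, chr5:157480371-157480400, minus strand: tggctgtatggcTGCATGtgacaagccacg
ADAM19, 3′ UTR, chr5:157478842-157478871, minus strand: agccatagtgacTGCATGagccatctgaac
TIMP2, 3′ UTR, chr17:78854595-78854624, minus strand: cacggggctttcTGCATGtgacgccagcta
ADAM15, which rose in siRBFOX2 and fell in siQKI cells, holds 1 TGCATG in its coding sequence and no ACTAAC in this transcript.

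Other genes of proteolysis around the cell were taken from a list chosen for function, of which 38 of 47 were tested. In siQKI cells 9 rose and 7 fell, together 42.1% against 33.0% of all genes tested, and in siRBFOX2 cells 8 rose and 6 fell, together 36.8% against 26.5%. Among the 7 tested activators of MMPs, 3 fell in siQKI cells and the same number in siRBFOX2 cells, and in both cases these were PLAU, PLAUR and PCSK7. PLAU, the urokinase that makes plasmin, had log2 fold changes of -0.49 (limma adjusted p = 9.51e-07) and -0.56 (limma adjusted p = 5.23e-07), and its receptor PLAUR had -0.62 (limma adjusted p = 3.17e-04) and -0.58 (limma adjusted p = 7.66e-04). FURIN, which removes the prodomain of MMP11, MMP14 and many ADAMs, rose in siQKI cells, 0.12 (limma adjusted p = 0.025).

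Of the 4 tested ADAMTS-like genes, which lack a protease domain, ADAMTSL5 (0.34 (limma adjusted p = 0.0156)) and PAPLN (0.43 (limma adjusted p = 0.0275)) rose in siRBFOX2 cells, and ADAMTSL2 came nearest to passing in siQKI cells with 2.10 (limma adjusted p = 0.0553). Of the 7 tested inhibitors, 3 rose and 1 fell in siQKI cells. RECK, a membrane-anchored inhibitor of MMPs, had 0.26 (limma adjusted p = 0.0155), and CST3, or cystatin C, an inhibitor of cathepsins, had 0.18 (limma adjusted p = 0.00476). TFPI2 fell in siQKI cells with -2.41 (limma adjusted p = 0.0379). The 9 partners that carry or steer ADAM10 and ADAM17 were all tested, and 4 rose and 2 fell in each knockdown. RHBDF2, which brings ADAM17 to the cell surface, had 0.21 (limma adjusted p = 0.00288) and 0.39 (limma adjusted p = 2.23e-05). FRMD8, which stabilises that complex, had -0.80 (limma adjusted p = 8.71e-09) and -0.22 (limma adjusted p = 0.00249), and TSPAN5, a tetraspanin that carries ADAM10, had -0.85 (limma adjusted p = 8.67e-08) and -0.37 (limma adjusted p = 3.78e-04). Other tetraspanins of the list rose. TSPAN15 had 0.14 (limma adjusted p = 0.00597) and 0.17 (limma adjusted p = 0.00256), and TSPAN33 had 0.80 (limma adjusted p = 0.0187) and 0.69 (limma adjusted p = 0.047). TSPAN14 rose in siQKI cells only, 0.20 (limma adjusted p = 0.0296), and TSPAN17 in siRBFOX2 cells only, 0.17 (limma adjusted p = 0.0246). LRP1, the endocytic receptor that clears MMPs and their inhibitor complexes, rose in both knockdowns, 0.59 (limma adjusted p = 1.81e-04) and 0.50 (limma adjusted p = 0.00105). Of the 9 tested other matrix proteases, the lysosomal cathepsin CTSL was the only gene to pass in limma, as lower, with -0.83 (limma adjusted p = 4.62e-08) and -0.59 (limma adjusted p = 2.89e-06).

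HPAF-II and PANC-1 siCtrl libraries were set side by side to see how the members differ between a classical and a basal-like line. Their tables were normalized apart, so the levels below were rescaled to a total of 1000000 per library and no test was run. Of the 52 members that averaged at least 10 normalized counts in PANC-1 siCtrl or in HPAF-II libraries, 44 (84.6%) were at least 2-fold apart, 22 higher and 22 lower in HPAF-II. Over all 24673 genes compared, 53.2% were at least 2-fold apart, 26.1% higher and 27.1% lower. The median absolute log2 difference of the members was 3.47, against 1.10 over all genes. For members at 0 in a line its size depends on the pseudocount of 0.01. MMP3, MMP12, MMP20, ADAM20, ADAM28 and TIMP4 averaged below 10 in PANC-1 siCtrl libraries and could not come out as lower in HPAF-II. MMP2, MMP9, MMP16, MMP17, ADAM12, ADAM23 and the ADAMTS genes named below averaged below 10 in HPAF-II and could not come out as higher. The same filter applied to all genes. Libraries of the 2 lines did not overlap for 43 of the 52 members, where the share over all genes was 63.7%. Among members that averaged at least 50 in a line, 19 were at least 2-fold higher and 21 at least 2-fold lower in HPAF-II. Leaving out 1 library moved the ratio by more than 1.5 times for 10 members with a library at 0, for which no fold is given (MMP10, MMP13, MMP17, MMP28, ADAM20, ADAM22, ADAMTS2, ADAMTS4, ADAMTS8 and ADAMTS15), and ADAM20 was then less than 2-fold apart on the log2 scale with its pseudocount of 0.01 without HPAF-II replicate 3. Without that library MMP9, ADAMTS8 and ADAMTS17 were at 0 in HPAF-II. Other members that 1 library moved that far are given with their values.

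**Figure D3:**
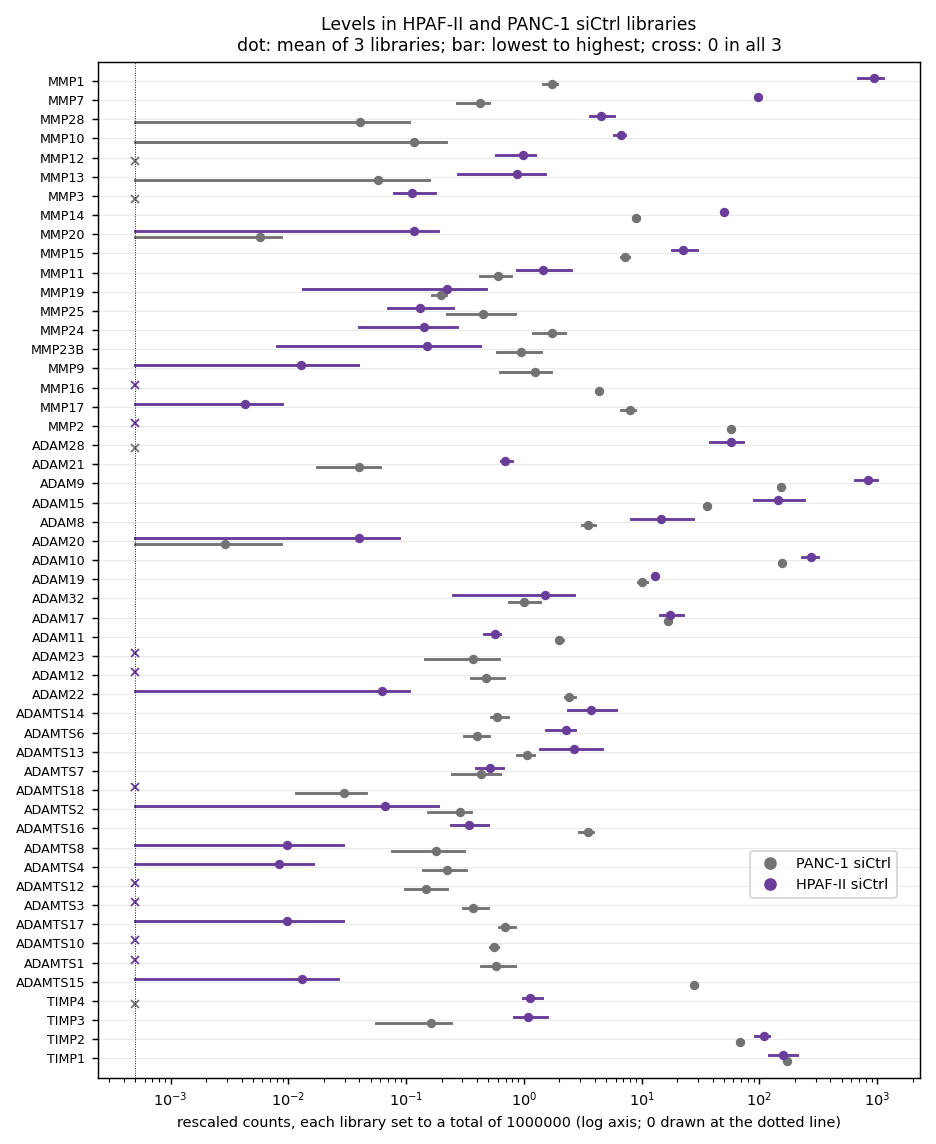
Rescaled counts (x axis, log scale) of the 52 compared members in siCtrl libraries of PANC-1 (grey) and HPAF-II (purple), with the mean of 3 libraries as a dot, the lowest to highest library as a bar and a cross where all 3 are at 0. MMP1, MMP7, ADAM28 and TIMP4 lie far to the right of their PANC-1 values in HPAF-II, and MMP2, MMP16 and 7 other members are at 0 in HPAF-II.

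MMP1 was the most abundant member in HPAF-II cells, with 313909, 290211 and 195248 normalized counts in the 3 libraries. By count, it ranked between place 85 and place 192 in the HPAF-II libraries and between 11768 and 12263 in the PANC-1 siCtrl libraries. After rescaling it had 939.8 ± 226 in HPAF-II and 1.75 ± 0.244 in PANC-1 (SD, n = 3 each), a 538-fold difference, or 610.5-fold without HPAF-II replicate 3. Single pairs of libraries gave ratios from 361 to 766. MMP1 alone held 82.9% of the summed rescaled counts of all MMPs in HPAF-II, uncorrected for length, against 1.86% in PANC-1 siCtrl cells, where MMP2 held 61.5%.

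MMP1 lies in a cluster of 9 MMP genes on chromosome 11 (102520508 to 102955734, 435 kb), and 7 of them could be compared. These 7 were at least 2-fold higher in HPAF-II, but 3 of them reached the minimum of 10 through HPAF-II alone and could only come out as higher, since MMP3 and MMP12 were at 0 in all PANC-1 siCtrl libraries and MMP20 had 2.87, 0 and 3.02 normalized counts. Among the 12 other compared MMPs 4 were higher and 7 lower. The cluster was singled out after its values were seen. MMP7, the epithelial matrilysin, had 27782, 27514 and 28037 normalized counts in HPAF-II against 171, 173 and 93.6 in PANC-1 siCtrl, a 231-fold difference after rescaling. MMP10, a stromelysin, had 1624, 2068 and 1980 in HPAF-II against 0, 76 and 45.3 in PANC-1. MMP12, the metalloelastase, had 350.5, 323 and 165 and was listed at 0 in all PANC-1 libraries. MMP13, collagenase 3, had 76.5, 438 and 233 against 0, 6.0 and 54.3, with every HPAF-II library above every PANC-1 siCtrl library. MMP3 (22.2, 24.1 and 49.5) and MMP20 (51.8, 0 and 46.8) reached at most 51.8 normalized counts in HPAF-II, and MMP20 overlapped between the lines. MMP8 and MMP27 had at most 2.75 normalized counts in any HPAF-II library and were not compared.

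**Figure D4:**
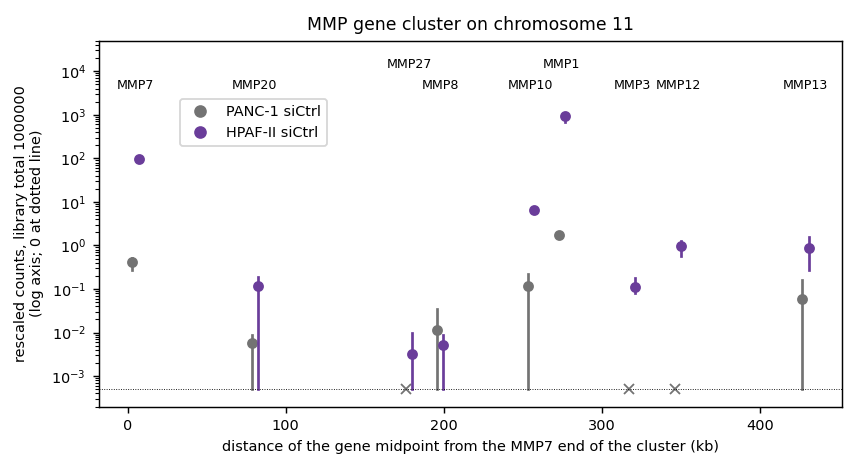
Rescaled counts (y axis, log scale) of the 9 MMP genes of the chromosome 11 cluster in siCtrl libraries of PANC-1 (grey) and HPAF-II (purple), against the distance of the gene midpoint from the MMP7 end (x axis, kb), with the mean as a dot, the range of 3 libraries as a bar and a cross where all are at 0. MMP7, MMP10 and MMP1 stand highest in HPAF-II, and MMP27 and MMP8, between MMP20 and MMP10, are near 0 in both lines.

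Promoters of MMP genes are known for binding sites of the transcription factor AP-1, so the RefSeq promoter windows (GRCh38.p14, 250 bases before to 50 after the start) were searched for TGANTCA, which reads the same on both strands. The motif was chosen after the values were seen. It stood in 4 of the 39 members with a window (MMP7, MMP10, MMP20 and ADAMTS12) and in 7.71% of all 35116 windows, and 3 of these 4 lie in the cluster. MMP1, MMP3, MMP12 and MMP13 of the cluster had no window and were not searched, while MMP8 and MMP27 were searched and had no match. Other members that were at least 2-fold higher in HPAF-II also had a window without the motif. These were MMP11, MMP14, MMP15, ADAM8, ADAM15, ADAM20, ADAM21, ADAMTS6, ADAMTS13, ADAMTS14, TIMP3 and TIMP4. ADAMTS12, which also holds the motif, was listed at 0 in all HPAF-II libraries. The part of the motif in the levels was not tested. The 100 bases before the start of MMP7 and MMP10 are shown because both were far higher in HPAF-II, with the match in capitals.
MMP7, chr11:102530748-102530847, minus strand: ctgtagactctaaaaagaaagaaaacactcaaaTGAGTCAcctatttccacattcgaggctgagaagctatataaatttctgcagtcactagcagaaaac
MMP10, chr11:102780629-102780728, minus strand: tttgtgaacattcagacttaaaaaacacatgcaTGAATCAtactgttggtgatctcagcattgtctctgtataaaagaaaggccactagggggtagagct
In both genes the match begins 67 bases before the start.

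Outside the cluster, MMP14 had 13704, 14056 and 14562 normalized counts in HPAF-II and was 5.56-fold higher than in PANC-1 after rescaling. MMP15 (5564, 5252 and 8346) was 3.12-fold higher, or 2.65-fold without replicate 3. MMP28, or epilysin, had 1011, 1159 and 1657 against 0, 6.0 and 36.2 in PANC-1. These genes did not overlap between the lines. MMP11 had 247, 282 and 709 and was 2.43-fold higher, but 1.56-fold without HPAF-II replicate 3, and it also fell below 2-fold without PANC-1 siCtrl replicate 3.

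Other MMPs were lower in HPAF-II. MMP2, at 18902 to 20501 normalized counts in PANC-1 siCtrl libraries, was listed at 0 in all 3 HPAF-II libraries, as was MMP16. The membrane-type MMP17 had 0 to 2.47 normalized counts in HPAF-II against 2268 to 3056 in PANC-1, and MMP9 had 0, 0 and 11 against 488, 218 and 587. MMP24 (33.3, 11.5 and 76.2) was 12.1-fold lower in HPAF-II, or 21.7-fold without replicate 3. MMP23B (4.94, 2.29 and 121) was 6.30-fold lower, or 74.1-fold without replicate 3. MMP25 (19.8, 21.8 and 70.7) was 3.42-fold lower, or 6.15-fold without replicate 3 and 1.93-fold without PANC-1 siCtrl replicate 2, and its libraries overlapped between the lines.

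ADAM9 was the most abundant ADAM in HPAF-II, with 245142, 289308 and 183411 normalized counts and 61.2% of the summed rescaled counts of its family, uncorrected for length. It was 5.48-fold higher than in PANC-1 (843 ± 183 against 154 ± 6.40 rescaled counts, SD, n = 3 each). ADAM28, a protease first described in lymphocytes, had 17578, 20804 and 10827 and was listed at 0 in all PANC-1 siCtrl libraries. ADAM15 had 27918, 25864 and 68265 and was 4.0-fold higher, or 2.65-fold without replicate 3. ADAM8 had 2283, 2452 and 7823 and was 4.24-fold higher, or 2.40-fold without replicate 3. Replicate 3 held the highest value of both genes. ADAM21 (181, 227 and 182) was 17.3-fold higher. ADAM20 (0, 9.16 and 24.8) overlapped between the lines.

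The sheddases ADAM10, ADAM17 and ADAM19 were within 2-fold between the lines, with HPAF-II to PANC-1 ratios of 1.78, 1.05 and 1.28, as was ADAM32 at 1.52, although without HPAF-II replicate 2 its ratio was 2.15 and without replicate 1 it was 0.936. MMP19 and ADAMTS7 were also within 2-fold, but without HPAF-II replicate 2 the ratio of MMP19 went from 1.14 to 0.494, and ADAM17, ADAM32, MMP19 and ADAMTS7 overlapped between the lines. All 3 ADAMs without the catalytic motif were lower in HPAF-II. ADAM11 (170.3, 179 and 131) was 3.51-fold lower, ADAM22 had 29.6, 0 and 22.9, and ADAM23 was listed at 0 in all HPAF-II libraries. ADAM12 was also listed at 0 there, against 229.8, 137 and 122 normalized counts in PANC-1 siCtrl.

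Of the 15 compared genes of the ADAMTS family, 11 were at least 2-fold lower and 3 at least 2-fold higher in HPAF-II, but most of the lower ones could only come out as lower. Over all genes compared, 27.1% were at least 2-fold lower and 26.1% higher. ADAMTS1, ADAMTS3, ADAMTS4, ADAMTS8, ADAMTS10, ADAMTS12, ADAMTS15, ADAMTS17 and ADAMTS18 reached the minimum of 10 through PANC-1 alone and could not come out as higher. Among the genes that reached it in both lines, ADAMTS2 and ADAMTS16 were lower, ADAMTS6, ADAMTS13 and ADAMTS14 were higher, and ADAMTS7 was within 2-fold. The summed rescaled counts of the family were 9.67 ± 3.17 in HPAF-II and 36.7 ± 0.539 in PANC-1 siCtrl (SD, n = 3 each). ADAMTS15, the leading gene of the family in PANC-1, had 7.41, 0 and 3.67 normalized counts in HPAF-II. ADAMTS1, ADAMTS3, ADAMTS10, ADAMTS12 and ADAMTS18 were listed at 0 in all HPAF-II libraries, and ADAMTS4, ADAMTS8 and ADAMTS17 had at most 8.26 normalized counts in any of them. ADAMTS16 (67.9, 143 and 81.7) was 10.2-fold lower, and ADAMTS2 (51.8, 0 and 3.67) overlapped between the lines. The 3 higher genes were ADAMTS14 (755, 684 and 1733, 6.24-fold), ADAMTS6 (715, 782 and 434, 5.63-fold) and ADAMTS13 (385, 609.5 and 1298, 2.54-fold). Without replicate 3, ADAMTS14 was 4.26-fold and ADAMTS13 1.65-fold higher, the latter below the 2-fold limit.

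TIMP1 and TIMP2 were within 2-fold between the lines. TIMP1 had 41260, 34806 and 59854 normalized counts in HPAF-II, with 159.8 ± 46 rescaled counts against 172 ± 6.39 in PANC-1 (SD, n = 3 each), a difference smaller than the spread in HPAF-II. TIMP2 had 108 ± 15.5 against 67.9 ± 1.31, without overlap. TIMP3 (252, 236 and 443) was 6.68-fold higher in HPAF-II, and TIMP4 had 395, 283 and 279.9 against 0 in all PANC-1 libraries. TIMP3 lies within SYN3, and TIMP4 shares exonic bases with SYN2. Per kilobase, the order in HPAF-II was MMP1 (477 ± 115), ADAM9 (122 ± 26.5), TIMP1 (104 ± 29.8) and MMP7 (42.1 ± 0.804 rescaled counts per kilobase, SD, n = 3), and ADAM9 and TIMP1 did not differ beyond their spread.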

How the data were processed

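PolyA RNA of 12 libraries was sequenced as 150 bp read pairs. The deposited signal values are gene counts over FAST DB genes that the authors scaled with DESeq2 size factors, in 1 table per cell line. The submitters' processing notes name STAR 2.7.5a, FastQC, Picard, SAMtools, DESeq2 and hg38, while featureCounts is listed among the study's software without being tied to these libraries, and its strand setting is not given in the sources used here. Most low values were multiples of 3 steps, so fragments could not be recovered and no count model was fitted. Log2(normalized count + 1) of the 22544 genes averaging at least 10 over 9 PANC-1 libraries was tested with limma 3.58.1 (R 4.3.3) in 1 fit of all groups, with a mean-variance trend, two-sided, with Benjamini-Hochberg adjustment over all genes and a threshold of 0.05. A log2 fold change of low genes on this scale depends on the pseudocount and on libraries near 0, and it can understate or exceed the change of the means. MMP28 had a fitted fold of 5.27 in siQKI cells, with means of 33.4 normalized counts there and 14.1 in siCtrl cells. The fit was tested on simulated data with known changes in 200 of 22544 genes. It recovered 117 of the 200, all in the right direction, and made 13 false calls. Of the 158 changed genes that averaged at least 50, it recovered 115. The share of changed genes was far below the 33.0% that passed in siQKI cells. The adjusted threshold was therefore stricter in the simulation, and these rates do not describe the calls made here. The lines were described after rescaling each library to 1000000, with a pseudocount of 0.01, and without a test. Exonic lengths, overlaps and transcripts came from GENCODE 29 and promoters from RefSeq. No proteins were used here.

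Members that passed against siCtrl and averaged at least 50 were given in every library, the other tested members by their log2 fold change, and between lines those at least 2-fold apart that averaged at least 50. ADAM15 was to be named whatever its value. The members, the lists and the tests were chosen with earlier results of these data known. The alternatives were the pseudocount (0.1 and 10), the filter, upper-quartile rescaling, fits restricted to the compared groups, the replicate number as a block, no trend, a fold limit of 1.5 and leaving out each library. In the tables no column of another sample was present. 1 gene of the related list is not reported here.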

Additional observations from a re-analysis of the deposited data

How the results depend on the processing

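No call of a member turned its direction under up to 17 alternatives. ADAM21, ADAMTS18, MMP10 and MMP28 had 16 and MMP20 had 15, since their means fell below the minimum in the others. Of the members called, 16 of 20 in siQKI, 11 of 16 in siRBFOX2 and 11 of 19 in the direct comparison kept their call in every alternative that gave a value. A fold limit of 1.5 left 10 members in siQKI, 7 in siRBFOX2 and 8 in the direct comparison. Leaving out 1 library gave 17 to 21, 13 to 17 and 14 to 20 members, and 41 to 46 members apart between the lines. Without the mean-variance trend 17, 12 and 13 members passed, and the members lost were ADAM32, MMP16, MMP23B and TIMP1 in siQKI, ADAM11, ADAM15, ADAMTS13, MMP15 and TIMP2 in siRBFOX2, and ADAMTS1, MMP2, MMP7, MMP11, MMP16 and MMP19 in the direct comparison, while ADAMTS4 was gained in siQKI (adjusted p = 0.0402 by limma) and ADAMTS3 in siRBFOX2 (adjusted p = 0.0464 by limma). The causes were not tested. Fitting only the groups compared lost ADAMTS13 in siRBFOX2 and MMP19 in the direct comparison, a pseudocount of 0.1 and upper-quartile rescaling also lost MMP19 there, and without the filter ADAMTS1, MMP7, MMP11 and MMP19 were lost in the latter. Gains follow with limma adjusted p in parentheses. The restricted fit gained ADAMTS10 in siQKI (0.0111) and MMP17 in the direct comparison (0.0301). Upper-quartile rescaling gained ADAMTS4 (0.0426) and ADAMTS10 (0.043) in siQKI and MMP17 (0.0457) in the direct comparison. A minimum mean of 50 gained ADAMTS4 (0.0463) and ADAMTS10 (0.0495) in siQKI. In the comparison of lines, 37 of 44 members were at least 2-fold apart in each of the 12 alternatives that gave a value, MMP19 and ADAM32 were so only without HPAF-II replicate 2, and MMP11 and ADAMTS13 were not without HPAF-II replicate 3 or with the deposited values.

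With the replicate number as a block, 22 members passed in siQKI, 16 in siRBFOX2 and 19 in the direct comparison. The block added ADAM33 (adjusted p = 0.0232) and ADAMTS10 (adjusted p = 0.049) in siQKI by limma and changed no other call. The labels do not say whether same-numbered libraries were prepared together. No pairing was visible in the values, where deviations of same-numbered libraries correlated with r between -0.032 and 0.023 over 9 pairs. Of 9 libraries, 3 correlated best with their own number. This is only a hint from the data and cannot exclude a shared preparation. Low members were limited in precision, with a median standard error of 0.38 on the log2 scale among those not called in siQKI.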

Other observations

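Other genes of proteolysis around the cell also differed between the lines. Of 43 compared, 13 were at least 2-fold higher and 15 at least 2-fold lower in HPAF-II, where 53.2% of all genes compared were at least 2-fold apart, 26.1% higher and 27.1% lower, as a description without a test of tables that were normalized apart. The urokinase PLAU had 43.7 ± 5.60 rescaled counts in HPAF-II and 246 ± 16.9 in PANC-1 siCtrl (SD, n = 3 each). The urokinase receptor PLAUR was the other way round, at 42.1 ± 3.31 and 5.55 ± 0.616. The MMP inhibitor RECK had 0.00538 ± 0.00932 rescaled counts in HPAF-II and 7.16 ± 0.369 in PANC-1, and the proteoglycan SPOCK1 had 0.00861 ± 0.0149 and 10.3 ± 0.503. DPP4, a membrane peptidase, had 64.9 ± 15.1 and 0.204 ± 0.120. Among the partners of ADAM10, TSPAN5 had 4.58 ± 0.637 in HPAF-II and 27.7 ± 1.29 in PANC-1, and TSPAN14 had 55.6 ± 5.80 and 14.1 ± 0.798.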
